A study of Mus musculus with 3 samples.

Results

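The loci of 7 genes of the Notch pathway were examined for Notch2 binding in mouse embryonic kidney: the receptors Notch1, Notch2 and Notch3, the ligands Jag1, Dll1 and Dll4, and Rbpj, the DNA-binding partner of the receptors. Members were all listed Notch2 peaks that touched a gene's span or the 50 kb on either side of it, on the mm9 build, with the spans given to the nearest 10 kb. These windows took in 1250 kb and held 40 of the 28651 peaks of replicate 1 and 14 of the 12585 peaks of replicate 2. The study immunoprecipitated Notch2 from crosslinked whole kidneys at embryonic day 16.5, with no genotype or treatment named, in 2 samples numbered as replicates, beside 1 input that was not analysed here. A peak is a region listed as holding an excess of sequenced fragments. The lists give its position only, so height, enrichment and read depth are unknown. Whole kidney mixes cell types, so a peak cannot be placed in one of them, and the lists hold no expression values that would test the tissue against its markers. No label ties either replicate to a litter or a pool of its own, and a difference between them may be technical.

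In Notch signalling, a ligand on one cell binds a receptor on its neighbour. The receptor is then cut within the membrane, and its intracellular part enters the nucleus, where it joins RBPJ and a Mastermind coactivator at target genes. In the forming nephron the pathway takes part in patterning, and Notch2 is the receptor known for its role in the proximal segments. An immunoprecipitation of Notch2 therefore asks where the receptor sits on chromatin, and at these loci whether it sits at the genes of its own pathway.

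Promoter sequences from RefSeq (GRCm38.p6) show what the starts of these genes look like. They matched all 7 genes, with 9 promoters of 300 bases, 250 before and 50 after the start. Those of Notch1 and Jag1 are shown because their windows held the most peaks found in both replicates, and that of Rbpj because it alone among the 7 genes held the core letters that RBPJ binds. The 250 bases before the start are printed 5′ to 3′ along the gene, with each TGGGAA, or its reverse complement TTCCCA, in capitals. Notch1 is chr2:26503823-26504072 on the minus strand, Jag1 is chr2:137116521-137116770 on the minus strand and Rbpj is chr5:53590096-53590345 on the plus strand. These positions are of GRCm38 and cannot be set against the mm9 peaks.
Notch1: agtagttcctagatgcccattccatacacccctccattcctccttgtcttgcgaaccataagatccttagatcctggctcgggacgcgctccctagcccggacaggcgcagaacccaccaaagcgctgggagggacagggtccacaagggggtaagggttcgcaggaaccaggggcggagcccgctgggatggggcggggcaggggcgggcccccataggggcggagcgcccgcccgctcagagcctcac
Jag1: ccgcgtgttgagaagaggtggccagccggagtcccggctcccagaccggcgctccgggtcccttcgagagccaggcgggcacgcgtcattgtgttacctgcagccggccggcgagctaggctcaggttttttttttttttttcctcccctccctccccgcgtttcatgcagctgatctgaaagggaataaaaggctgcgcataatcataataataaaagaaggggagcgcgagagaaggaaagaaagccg
Rbpj: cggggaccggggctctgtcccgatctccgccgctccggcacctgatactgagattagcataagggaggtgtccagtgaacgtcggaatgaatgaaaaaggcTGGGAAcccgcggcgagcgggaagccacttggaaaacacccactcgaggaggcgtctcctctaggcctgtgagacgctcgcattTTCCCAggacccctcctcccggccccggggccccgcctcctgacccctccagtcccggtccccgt
The letters TGGGAA, searched on both strands, occurred at 2 places in the Rbpj promoter, with first letters 149 and 65 bases before the start. A further Rbpj start in the table lies 140 bases on, and its promoter held the second of these again. The other 7 promoters, of the other 6 genes, held none, and 25.6% of all 32851 promoters of this length held at least 1. The longer GTGGGAA, which contains the shorter motif, was in none of the 9 and in 6.38% of all. A match is a run of letters, and whether any promoter lay under a peak was not tested, for want of an mm9 annotation.

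Receptor, ligand and Rbpj loci differed widely in their number of Notch2 peaks. Notch1, Notch2 and Jag1 held 31 of the 40 peaks of replicate 1 and 12 of the 14 of replicate 2. Rbpj held 2 peaks in each replicate. Notch3, Dll1 and Dll4 held 3, 3 and 1 in replicate 1 and none in replicate 2. Window widths ran from 120 kb at Dll1 and Dll4 to 300 kb at Rbpj. Per Mb, replicate 1 had 86.7 peaks at Notch1 (95% exact Poisson interval 46.1 to 148) and 6.67 at Rbpj (0.807 to 24.1). The Rbpj interval lay below those of Notch1 and Notch2 (24.8 to 83.8), and all other pairs of genes had overlapping intervals. The Jag1 interval (14.7 to 87.1) thus overlapped that of Notch3 (3.87 to 54.8). In replicate 2 the intervals of all 7 genes overlapped. Over all 7 windows there were 32.0 peaks per Mb in replicate 1 (95% exact Poisson interval 22.9 to 43.6) and 11.2 in replicate 2 (6.12 to 18.8), against 11.8 and 5.18 per Mb on all autosomes. The ratio to the autosomes was thus 2.71 (1.94 to 3.69) and 2.16 (1.18 to 3.63). These intervals cover counting error only and treat peaks as independent, although neighbouring peaks are clustered. The autosomes include long stretches without genes, and the windows were chosen as genes, so the ratios do not set these loci against other gene loci.

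**Figure D1:**
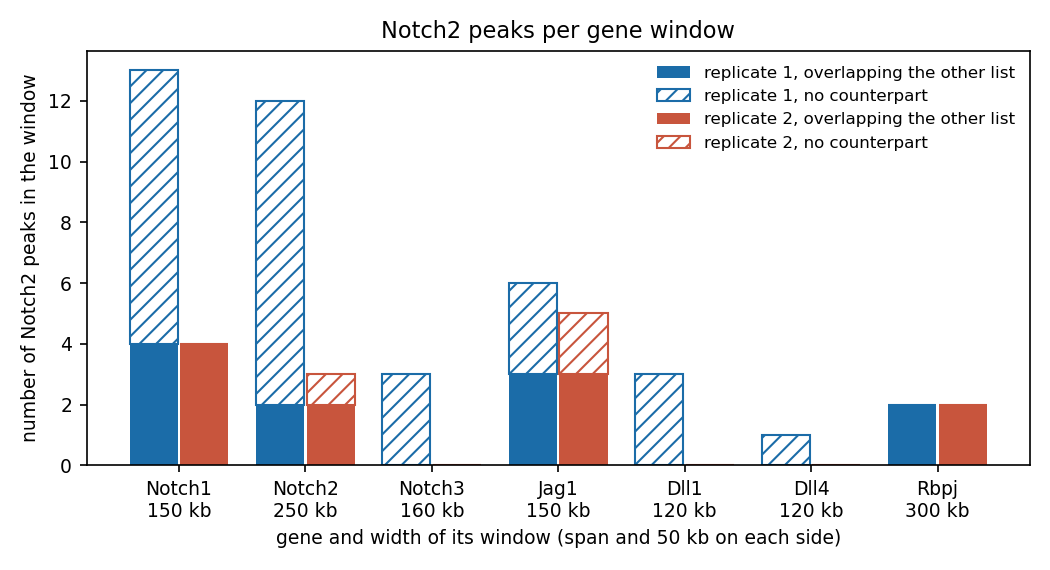
Number of Notch2 peaks (y axis) in the window of each gene (x axis, with the window's width in kb), for replicate 1 in blue and replicate 2 in red. Solid bars are peaks that overlap a peak of the other replicate and hatched bars those that do not; Notch1 has 13 and 4 peaks, and Notch3, Dll1 and Dll4 have none in replicate 2.

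Peaks were called shared when they overlapped a peak of the other list by at least 1 bp. At the 7 loci 11 of 40 replicate 1 peaks were shared, or 27.5% (95% Wilson interval 16.1 to 42.8%), where 33.0% of the whole list was. Of the replicate 2 peaks 11 of 14 were, or 78.6% (52.4 to 92.4%), where 75.5% of the whole list was. By this criterion both shares lay near those of the whole lists. Stricter criteria gave lower shares at the loci than over the whole lists, on 5 or 6 regions. With an overlap of at least 50% of both peaks, 15.0% of the replicate 1 members and 42.9% of the replicate 2 members were shared, against 29.0% and 66.0% of the whole lists. With centres within 100 bp the shares were 12.5% and 35.7%, against 19.3% and 44.0%. No intervals are given for these shares, and whether the differences exceed counting error was not tested. The 11 shared regions lay at Notch1 (4), Jag1 (3), Notch2 (2) and Rbpj (2). Replicate 1 had 2.86 times as many peaks at the loci as replicate 2 (95% exact interval 1.52 to 5.69), a range that takes in the ratio of 2.28 of the whole lists.

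Shared and unshared members stood at different places in the replicate 1 file. The sources used here do not say what the files' order follows, so a place is given as a percent of the list, repeated rows once, with low values first. Shared members had a median place of 9.60% in replicate 1 (2.62 to 72.5%) and a median width of 1674 bp. Unshared members had a median place of 51.0% (4.61 to 99.0%) and a median width of 718 bp. In replicate 2 the shared members had a median place of 44.5% (2.49 to 94.4%) and a median width of 654 bp. The 3 unshared members had 48.8% (34.4 to 92.8%) and 500 bp. The median places thus lay close together in replicate 2, but 3 unshared members are too few to set the replicates against each other. Over all members, the median place was 33.8% in replicate 1 and 46.6% in replicate 2, where a whole list has 50% by construction. Median widths were 780 and 577 bp, against 637 and 626 bp in the whole lists. The narrowest listed width, 500 bp, made up 12 of 40 members in replicate 1 and 7 of 14 in replicate 2, against 31.8% and 47.9% of the whole lists. Of the 12, 2 were shared, and of all 500 bp peaks of replicate 1 16.2% were. Over that whole list 33.0% of peaks were shared, and 70.6% of those of 2000 bp or wider. Wider peaks were thus shared more often over the whole list too, so a link of width with sharing is not particular to these loci. The median widths and the places of shared and unshared peaks over the whole lists were not computed.

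**Figure D2:**
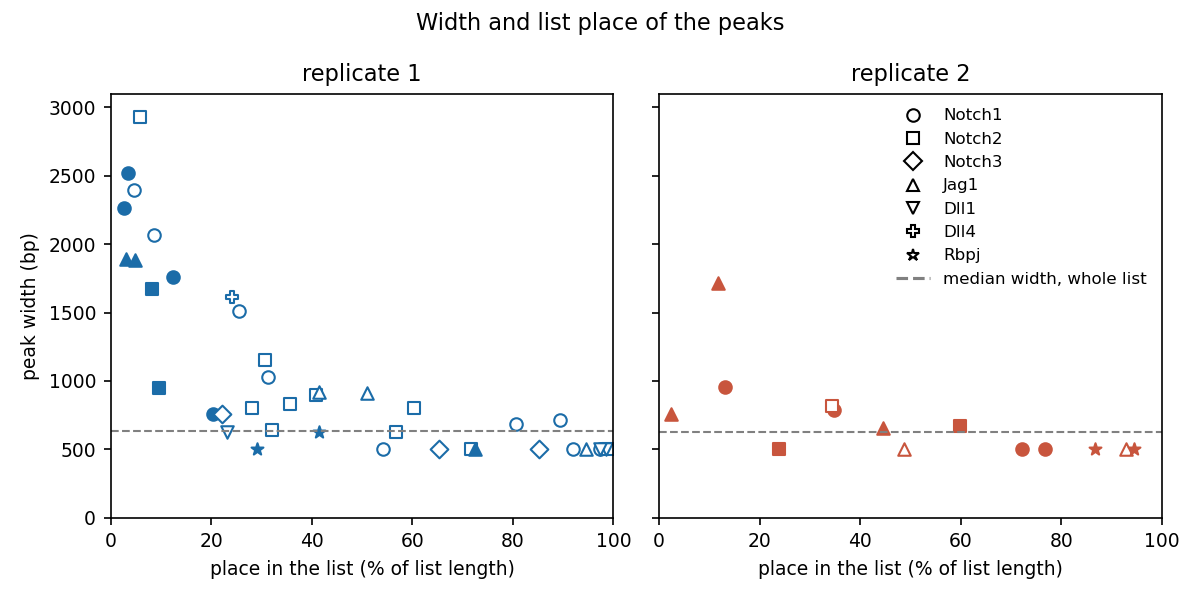
Width of each peak at the 7 loci in bp (y axis) against its place in the file as a percent of the list (x axis), for replicate 1 (left, 40 peaks) and replicate 2 (right, 14 peaks). Symbols mark the gene, filled symbols are shared peaks and the dashed line is the median width of the whole list; the peaks of 2000 bp or wider are 4 of Notch1 and 1 of Notch2, all in replicate 1 and in the first 10% of the file.

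Notch1, a receptor closely related to Notch2, had the densest window in replicate 1, whereas in replicate 2 Jag1 had 5 peaks and Notch1 4 in windows of equal width. On chromosome 2 from 26.26 to 26.41 Mb, replicate 1 listed 13 peaks, a number that 0.287% of 17046 adjoining windows of 150 kb over the 20 chromosomes reached. Replicate 2 listed 4, which 4.55% of such windows reached, and all 4 were shared, where 2.73% of windows held at least 4 shared peaks. These windows, like those used for the other genes, take in stretches without genes, and 39.4% held no replicate 1 peak. Shares of windows therefore do not set a locus against other gene loci. Of the 13, 7 lay in the span of the gene (26.31 to 26.36 Mb) and 6 above it, which is the upstream side because the gene is read toward lower positions. None lay in the 50 kb downstream. Each of the 13 lay within 12.5 kb of the next, so they formed a single chain of 73.1 kb, from 26330497 to 26403636. Of the 20224 such chains or single peaks of replicate 1, 9 held 13 or more peaks, or 0.0445%. In replicate 2 the longest chain at Notch1 was of 2 peaks over 5.12 kb, a number of peaks reached by 19.0% of 9861.

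Of the Notch1 pairs, 3 lay in the gene span and 1 upstream. The first ran from 26337303 to 26339062 in replicate 1 (1760 bp, place 3565) and from 26337631 to 26338416 in replicate 2 (786 bp, place 4382). The second ran from 26341589 to 26343854 in replicate 1 (2266 bp, place 752) and from 26341798 to 26342752 in replicate 2 (955 bp, place 1656), and it was the earliest listed peak of this window in both files. The third covered 2519 bp in replicate 1, from 26355356 to 26357874 (place 993), and 500 bp in replicate 2, from 26356062 to 26356561 (place 9663). Of the 4 pairs it differed most in width and place: among the widest in one replicate, it had the smallest listed width in the other. The fourth lay 12.1 kb above the span, from 26371703 to 26372460 in replicate 1 (758 bp, place 5819) and from 26371665 to 26372164 in replicate 2 (500 bp, place 9090).

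The 9 Notch1 peaks of replicate 1 without a counterpart measured 500 to 2393 bp. The widest, from 26348073 to 26350465, stood at place 1322, or 4.61% of the list, and the nearest replicate 2 peak was 5.32 kb away. Upstream, a peak of 2068 bp from 26380815 to 26382882 stood at place 2470 and lay 8.65 kb from the nearest replicate 2 peak. Wide and early peaks were therefore not all found in replicate 2. The window also reaches toward the neighbouring genes Sec16a on the low side and Egfl7, a gene of endothelial cells, on the high side (neighbours from RefSeq, GRCm38), so a peak of the flanks cannot be assigned to Notch1 by position alone.

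Notch2 encodes the immunoprecipitated protein itself, and its replicates differed in number within the gene and not around it. In the gene span, on chromosome 3 from 97.81 to 97.96 Mb, replicate 1 listed 9 peaks and replicate 2 listed none. Outside the span each listed 3, and 2 regions were shared there. A window of 150 kb without any replicate 2 peak was common, at 62.5%, and 1.60% of such windows held at least 9 replicate 1 peaks. Of those 273 windows 12, or 4.40%, held no replicate 2 peak, a comparison chosen after the counts at Notch2 were known. The whole window of 250 kb held 12 peaks in replicate 1, a number reached by 2.37% of windows of that width, and 3 in replicate 2, reached by 16.8%. At least 2 shared peaks were found in 22.0% of windows of that width.

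The shared region upstream of Notch2 ran from 97776000 to 97777673 in replicate 1 (1674 bp, place 2369) and from 97776084 to 97776752 in replicate 2 (669 bp, place 7543), 33.2 kb below the span by its centre. The one downstream ran from 98001701 to 98002646 in replicate 1 (946 bp, place 2750) and from 98001894 to 98002393 in replicate 2 (500 bp, place 3006), with centres 30.0 bp apart and 42.2 kb above the span in replicate 1. It stood in the first 25% of both lists. The coding genes next to Notch2 are Gm5544 on the low side and Adam30 on the high side, in the same RefSeq table.

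Within the Notch2 span, the widest peak ran from 97864791 to 97867719, measured 2929 bp and stood at place 1657, or 5.78% of the list. It was the widest member at any of the 7 loci, at rank 56 by width in replicate 1, and its row occurred 2 times in the file. The nearest replicate 2 peak lay 78.6 kb away. The other 8 peaks in the span measured 500 to 1153 bp and stood between 28.2% and 99.0% of the list. In replicate 2 the single unshared peak of the window lay upstream, from 97785337 to 97786152 (816 bp, place 4328), 7.66 kb from a replicate 1 peak. Peaks were thus listed in the gene body in replicate 1 only, and without peak heights it cannot be told whether replicate 2 had a weaker signal there or none.

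Of the replicate 1 members, 5 measured 2000 bp or more, a limit set with the values in view. They were 12.5% of the members, against 1.21% of the whole list, and all came from Notch1 (4) and Notch2 (1). Of these 5, 2 were shared, both at Notch1, whereas 70.6% of the 347 replicate 1 peaks of this width were. With 5 peaks this difference was not tested.

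Notch3, a receptor known from vascular mural cells, had no peak in its span (chromosome 17, 32.25 to 32.31 Mb) in either replicate. Replicate 1 listed 3 peaks in the flanks, a number reached by 27.2% of windows of 160 kb. A peak of 761 bp from 32344478 to 32345238 stood at place 6344, or 22.1% of the list, 34.9 kb upstream of the span, and one of 500 bp followed from 32346010 to 32346509. On the downstream side a peak of 500 bp ran from 32208976 to 32209475. The nearest replicate 2 peak to any of them was 106 kb away, and Ephx3 and Rrp1b are the coding neighbours.

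**Figure D3:**
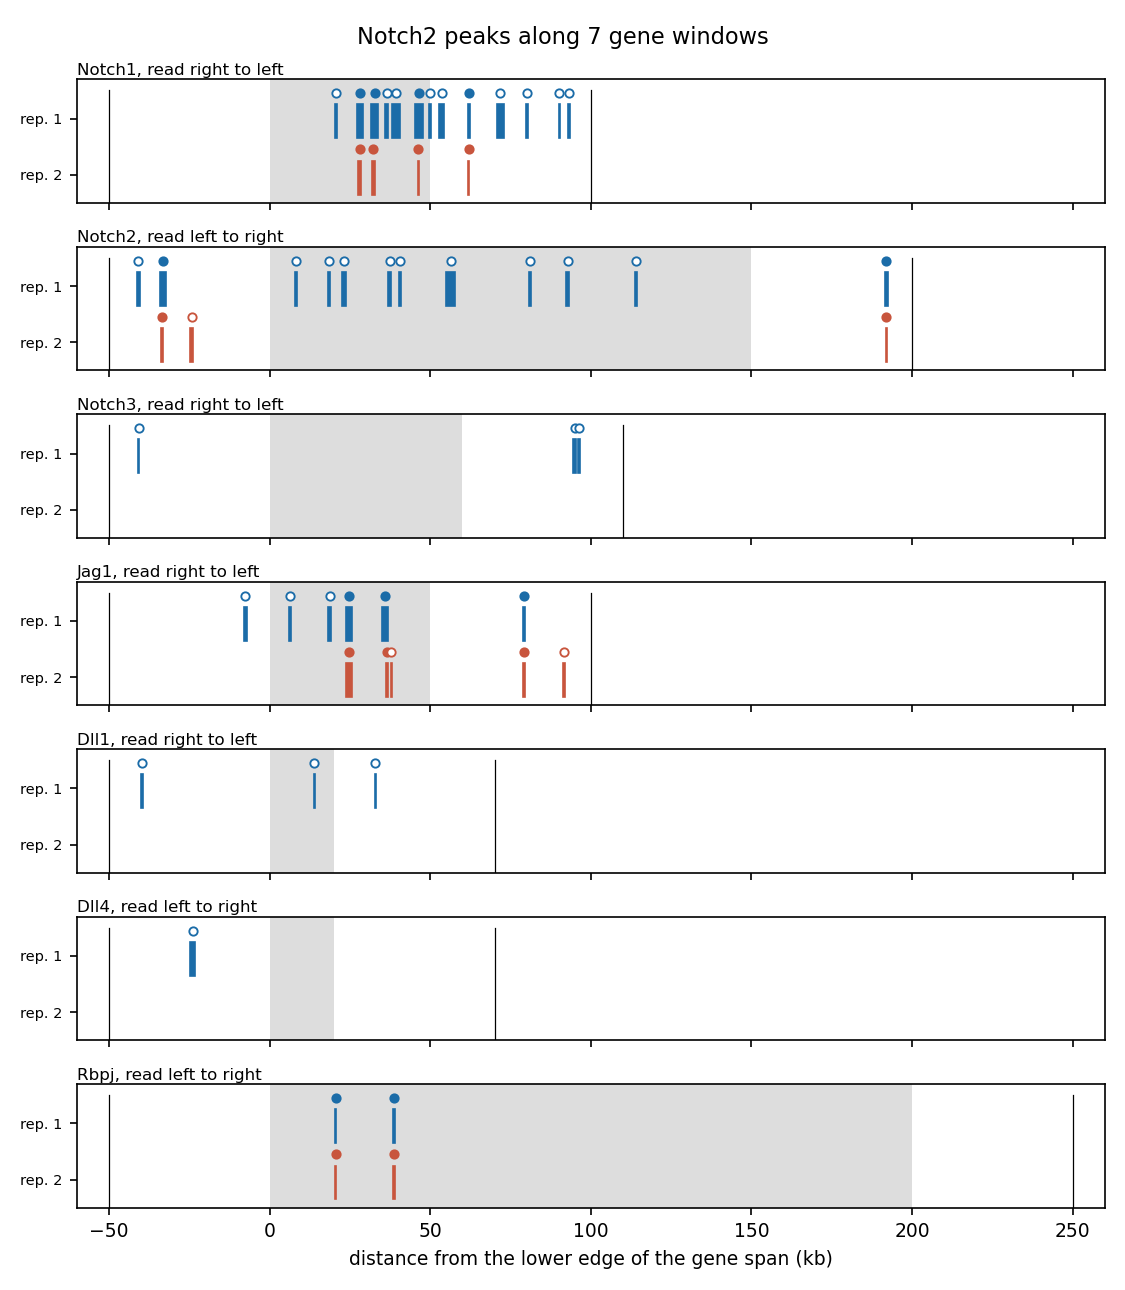
Positions of Notch2 peaks along the 7 windows as distance from the lower edge of each gene span in kb (x axis), with replicate 1 in blue above replicate 2 in red, bars drawn to scale, gene spans in grey and window edges as black lines. Filled circles mark shared peaks and open circles the others; at Notch2 the grey span holds 9 replicate 1 peaks and no replicate 2 peak, and at Jag1 and Notch1 shared peaks lie in the span.

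Jag1, the ligand whose loss affects several organs including the kidney, had similar numbers of peaks in both replicates. Its window on chromosome 2 from 136.85 to 137.00 Mb held 6 peaks in replicate 1 and 5 in replicate 2, numbers reached by 6.34% and 2.45% of windows of 150 kb, and 3 regions were shared, as many as in 5.95% of windows. In the span (136.90 to 136.95 Mb) there were 4 peaks in replicate 1 and 3 in replicate 2. Its coding neighbours, Slx4ip and Btbd3, lie on either side.

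The Jag1 region from 136923715 to 136925606 measured 1892 bp in replicate 1 (place 867), and in replicate 2 it measured 1716 bp, from 136923825 to 136925540 (place 1480). The replicate 2 peak lay wholly within the replicate 1 peak, with centres 22.0 bp apart, the closest of the 11 pairs. It was the widest replicate 2 member at any of the 7 loci. The region from 136935049 to 136936931 measured 1883 bp in replicate 1 (place 1373) and 762 bp in replicate 2, from 136936104 to 136936865. There it stood at place 313, or 2.49% of the list, the earliest replicate 2 member, although its centres lay 494 bp apart, the farthest of the pairs. A narrow replicate 2 peak from 136937619 to 136938118 began 0.687 kb beyond the end of that replicate 1 peak and had no counterpart.

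Upstream of Jag1, 29.1 kb above the span, a shared region ran from 136978858 to 136979357 in replicate 1 (500 bp, place 20770) and from 136978861 to 136979514 in replicate 2 (654 bp, place 5600). It was the single pair of the 11 in which the replicate 2 peak was the wider, and it stood late in replicate 1, at 72.5% of the list, and before the middle of replicate 2, at 44.5%. The 3 Jag1 peaks found in replicate 1 alone measured 500 to 918 bp. The widest, from 136918231 to 136919148, lay in the span 4.68 kb from a replicate 2 peak. In replicate 2 a further peak of 500 bp lay upstream, from 136991445 to 136991944, at place 11682.

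The Delta-like ligands had few peaks, and none in both replicates. Dll1, a ligand of differentiating nephron cells, had 3 replicate 1 peaks in its window on chromosome 17 from 15.45 to 15.57 Mb, a number that 19.5% of windows of 120 kb reached. The one in the span ran from 15513621 to 15514120, measured 500 bp and stood at 98.5% of the list. A second of 500 bp lay upstream, from 15532697 to 15533196, at 97.3%, and the widest, of 628 bp, lay downstream, from 15459973 to 15460600, at 23.2%. Of the 3, 2 were thus among the last listed peaks, and no replicate 2 peak lay within 176 kb of any of them. Ermard and Fam120b are the coding neighbours of Dll1.

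Dll4, a ligand of endothelial cells, had a single peak, in replicate 1. It ran on chromosome 2 from 119125193 to 119126806, measured 1614 bp and stood at place 6943, or 24.2% of the list, 24.0 kb upstream of the span (119.15 to 119.17 Mb), on the side of the neighbour Vps18. At least 1 replicate 1 peak was found in 54.9% of windows of 120 kb, so this count lay near the background. The nearest replicate 2 peak was 755 kb away. For replicate 2, 67.6% of windows of 120 kb, and 61.1% of those of 160 kb, held no peak, so that its absence from the Dll1, Dll4 and Notch3 windows was the common case.

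Rbpj, which encodes the DNA-binding protein, had few peaks that were found again in full. Both replicates listed 2 peaks in the window on chromosome 5 from 53.80 to 54.10 Mb, and the 2 of each overlapped. At least 2 replicate 1 peaks were found in 60.3% of windows of 300 kb, at least 2 replicate 2 peaks in 33.4% and at least 2 shared peaks in 26.3%. The number was thus not unusual for a window of this width, and 100% of 2 peaks has a 95% Wilson interval from 34.2%.

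The first Rbpj region ran from 53870263 to 53870762 in replicate 1 (500 bp, place 8365) and from 53870222 to 53870721 in replicate 2 (500 bp, place 10925). The second ran from 53888469 to 53889097 in replicate 1 (629 bp, place 11858) and from 53888451 to 53888950 in replicate 2 (500 bp, place 11874). Centres lay 41.0 and 82.5 bp apart. Both were narrow and late in replicate 2, at 86.8% and 94.4% of the list, and stood at 29.2% and 41.4% in replicate 1. They lay in the low part of the span, 20.5 and 38.8 kb from its lower edge. That span is 200 kb long, whereas the gene is 101667 bp long in RefSeq on GRCm38, so part of the span lies outside that gene model, and whether these peaks do was not tested. Smim20 and Cckar are the coding neighbours.

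The 11 pairs together showed wider peaks in replicate 1. The replicate 1 peak was wider in 9, narrower in 1 and equal in 1, and over all 9469 shared replicate 1 peaks it was wider in 66.5%. Centres lay a median of 159 bp apart at the loci and 81.0 bp over the whole list. They were within 250 bp in 7 of 11 pairs, against 88.1% of the whole list. The pairs farther apart lay at Notch1 (2), Notch2 (1) and Jag1 (1), and in each of these the replicate 1 peak was the wider.

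Peaks were denser in the gene spans than in the flanks in both lists, by values whose intervals overlapped. Replicate 1 had 41.8 peaks per Mb of span (95% exact Poisson interval 26.5 to 62.7; 23 peaks) and 24.3 per Mb of flank (14.1 to 38.9; 17 peaks). Replicate 2 had 14.5 (6.28 to 28.7; 8 peaks) and 8.57 (3.15 to 18.7; 6 peaks). In replicate 1 the spans held 9 peaks at Notch2, 7 at Notch1, 4 at Jag1, 2 at Rbpj, 1 at Dll1 and none at Notch3 or Dll4. In replicate 2 they held 3 at Notch1, 3 at Jag1 and 2 at Rbpj. The Rbpj span is 200 of the 550 kb of span and is longer than its gene model, so span density is not density within genes. Of the flanking peaks, 13 of 17 in replicate 1 and 5 of 6 in replicate 2 lay on the upstream side of the gene. Notch1 held 6 of the 13 and 1 of the 5, and had no downstream peak. In replicate 1, Notch2 and Notch3 each had 2 upstream and 1 downstream. Jag1 and Dll1 each had 1 on either side, and Dll4 had 1 upstream only. Sides were not counted at other genes, so whether these loci differ from them in this was not tested. The limits of the windows left out peaks close by. The nearest was a peak of 933 bp from 98010502 to 98011434, 0.501 kb above the Notch2 window in replicate 1, and replicate 2 had one of 630 bp there, 0.702 kb outside. The member closest to a limit was the Notch1 peak from 26402948 to 26403636, 6.36 kb inside.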

How the data were processed

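The authors deposited 1 peak list for each of the 2 Notch2 immunoprecipitations, with chromosome, start and end in base pairs and no score or count. Bowtie, SAMtools, HOMER and mm9 are named in the submitters' processing notes, with no versions, roles or settings. Starts were read as counted from 0 and are given from 1. Of 28893 and 13065 rows, 242 and 480 repeated another and were counted once. Gene spans came from the rule that chose the loci, to 10 kb, and were not checked against an mm9 annotation. The members and lists were chosen with earlier results of these data known. In each window every shared pair was to be named, and of the unshared peaks the widest per replicate; others named were chosen after their values were seen. Windows of the same width were laid end to end over each chromosome between its outermost peaks. Strand, neighbours and promoters came from RefSeq (GRCm38.p6). No test between groups applies. Overlap counting was tested on simulated data, where 10 of 10 lists gave all 300 planted overlaps and equalled bedtools 2.31.1. Other pathway genes, among them Notch4, Jag2, Dll3, Maml1, Maml2, Maml3, Ncstn, Adam10 and Mib1, were not analysed here. The software was matplotlib 3.10.9, scipy 1.17.1, pandas 2.3.3 and numpy 2.4.6 under Python 3.11.15.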

Additional observations from a re-analysis of the deposited data

How the results depend on the processing

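Without flanks the loci held 23 peaks in replicate 1 and 8 in replicate 2, with 7 shared, and with flanks of 100 kb 57 and 20, with 16 shared. The first 50% of each list in file order left 24 and 8 peaks with 5 shared (19.2 per Mb in replicate 1), and the upper 50% by width left 25 and 7 with 5 shared (20 and 5.60 per Mb). With replicate 1 limited to the length of replicate 2 it had 24 peaks, or 19.2 per Mb, beside 14 in replicate 2. Of these 10 were shared, or 41.7% in replicate 1 and 71.4% in replicate 2. That counts fell or rose under these settings follows by construction, but by how much does not. Overlap of at least 50% of both peaks left 6 shared regions, or 15.0% and 42.9% of the members, and centres within 100 bp left 5, or 12.5% and 35.7%; widening by 500 bp left 11. Of the values for the 7 genes together, over all settings, 41 moved by no more than 1.5 times or stayed within their interval, and 25 did not. For single genes 26 of 84 counts moved by over 1.5 times, 0 of them with repeated rows counted. Each other setting moved 4 to 6 of them. The replicate 2 counts of Notch3, Dll1 and Dll4 were 0 in every setting and were taken as unmoved, so the 84 include counts that stayed at 0. With replicate 1 limited to the length of replicate 2, the replicate 2 list was unchanged. Its peak counts and peaks per Mb could not move there, and both tallies include them. Leaving out a replicate was not run, since the values of each are given by themselves and sharing needs both. No paired analysis was possible because the lists belong to 1 group. Unknown read depth limits every statement on peaks found in 1 replicate.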
